A study of Mus musculus with 4 samples.

Results

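The genes described here are 10 genes of the NRF2 antioxidant pathway: Nfe2l2, Keap1, Hmox1, Nqo1, Gclc, Gclm, Srxn1, Txnrd1, Gstm1 and Prdx1. They were chosen by name and found through their Ensembl identifiers among the 20089 genes measured, and all 10 had reads in all 4 libraries. The study asked how mRNA levels differ after knockdown of Neat1, a long non-coding RNA that builds nuclear paraspeckles, in unstressed and in stressed cells. Total RNA came from HT22, a line of mouse hippocampal neurons that divides without limit in culture. The 4 libraries were cells with a lentivirus against Neat1 kept without oxygen and glucose (OGD), cells with a control negative lentivirus under OGD, cells with the Neat1 lentivirus in normal culture (DMEM/F12 with serum), and cells with the control lentivirus in normal culture. These are called knockdown OGD, control OGD, knockdown normal and control normal. All cells carried a lentivirus. The sources used here give neither the length of OGD nor the lentiviral constructs.

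Each group was 1 library, so no spread between cultures could be measured and no test was run. Every comparison below is between 2 libraries. The intervals printed are exact 95% intervals that cover counting error only, and reads copied by PCR are not independent molecules. A gene is counted as higher or lower, or as past 2-fold, when the libraries differed by at least 2-fold (a log2 ratio of 1 or more, on the scale of CPM, reads scaled to the size of the library, after 0.5 CPM were added to both) and the higher library held at least 20 reads.

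NRF2, the protein of Nfe2l2, is a transcription factor that is normally held by KEAP1 and passed to the CUL3 ubiquitin ligase for breakdown. Oxidants and electrophiles modify cysteines of KEAP1, and NRF2 then accumulates, pairs with small MAF proteins and binds antioxidant response elements near genes for glutathione synthesis, thioredoxin reduction, quinone reduction and haem breakdown. BACH1 competes for the same elements, above all at Hmox1. In brain tissue the pathway is known to be more active in astrocytes than in neurons.

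The promoters of the members were read to show which of them carry such an element close to the start site. RefSeq promoters (build GRCm38.p6, 250 bases before to 50 after a start) were at hand for 8 members, and those of Hmox1 and Gclc were not analysed here. The core of the antioxidant response element, TGACNNNGC on either strand, was found in 5 of these members, Nfe2l2, Gclm, Srxn1, Txnrd1 and Prdx1. Among all genes with a promoter of this length 14.0% held it. The AP-1 element TGANTCA was found in 2 of them, Srxn1 and Prdx1, against 8.97% of genes. Its second match in Prdx1, at -131 to -125, overlaps the antioxidant core at -133 to -125. The letters ACGTG of the hypoxia response element were found in Keap1, Gclm and Gstm1, against 21.8% of genes. The promoters below belong to 4 genes with less mRNA under OGD than in normal culture in knockdown cells, and each is written 5′ to 3′ on the strand of its gene, with the antioxidant core and AP-1 letters in capitals. A match is a description of the letters and not a bound site.

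Srxn1, chr2:152105274-152105573, plus strand: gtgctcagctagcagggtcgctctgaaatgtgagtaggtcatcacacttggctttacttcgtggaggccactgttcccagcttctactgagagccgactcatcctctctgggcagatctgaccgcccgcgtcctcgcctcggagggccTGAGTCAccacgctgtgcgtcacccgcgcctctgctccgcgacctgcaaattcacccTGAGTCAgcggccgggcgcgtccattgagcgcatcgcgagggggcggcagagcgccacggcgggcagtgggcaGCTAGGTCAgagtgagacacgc
Prdx1, chr4:116685349-116685648, plus strand: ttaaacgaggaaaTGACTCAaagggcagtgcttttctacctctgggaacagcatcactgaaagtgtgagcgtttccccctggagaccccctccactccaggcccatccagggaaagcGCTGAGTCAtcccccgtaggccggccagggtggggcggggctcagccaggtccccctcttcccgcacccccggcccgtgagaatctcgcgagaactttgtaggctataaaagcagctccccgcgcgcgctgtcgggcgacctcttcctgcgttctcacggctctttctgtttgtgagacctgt
Txnrd1, chr10:82858956-82859255, plus strand, the second of 3 promoters: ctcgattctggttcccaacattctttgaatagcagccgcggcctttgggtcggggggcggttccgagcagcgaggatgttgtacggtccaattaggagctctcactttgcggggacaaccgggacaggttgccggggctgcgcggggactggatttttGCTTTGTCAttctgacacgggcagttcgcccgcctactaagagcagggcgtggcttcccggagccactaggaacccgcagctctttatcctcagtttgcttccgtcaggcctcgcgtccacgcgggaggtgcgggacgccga
Gclm, chr3:122245307-122245606, plus strand: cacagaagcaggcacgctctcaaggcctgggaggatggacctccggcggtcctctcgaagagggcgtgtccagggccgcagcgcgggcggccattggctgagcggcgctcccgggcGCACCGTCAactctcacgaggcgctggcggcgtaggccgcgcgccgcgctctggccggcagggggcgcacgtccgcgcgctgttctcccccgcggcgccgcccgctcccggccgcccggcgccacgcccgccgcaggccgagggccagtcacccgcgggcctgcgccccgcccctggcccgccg

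In Srxn1 the antioxidant core as searched, TGACNNNGC, lies after the start site, at 29 to 37, and the AP-1 letters lie at -102 to -96 and -45 to -39. From -45 the letters read on as TGAGTCAGC, which depart from the core searched by a G in place of its first C. In Txnrd1 the core lies at -92 to -84 and in Gclm at -134 to -126, and in each of these 3 genes it is read on the opposite strand of the gene. The promoter of Nfe2l2 (chr2:75704614-75704913, minus strand) holds the core TGACTCCGC at -240 to -232. Keap1, Nqo1 and Gstm1 had no core in these windows, which says only that these letters are not there.

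The 4 libraries held 17232866 to 20764430 reads assigned to genes and 12020 to 13813 genes with at least 20 reads. Neat1 itself had 42.1 CPM in knockdown OGD cells against 74.4 CPM in control OGD cells, 1.77-fold lower (interval 1.61 to 1.93). In normal culture it had 121 CPM in knockdown cells against 193 CPM in control cells, 1.60-fold lower (1.52 to 1.68). The control normal library stood apart: 1443 genes were at least 2-fold above each other library there, against 61 to 433 genes in the others, and 128 were at least 16-fold above. No member was among those genes. The summed level of 20 neuron markers was 407 CPM in knockdown OGD, 137 CPM in control OGD, 29.5 CPM in knockdown normal and 3530 CPM in control normal cells, and 7 of the 20 had at least 20 reads in knockdown normal cells. Markers of oligodendrocytes summed to 105, 34.8, 27.5 and 295 CPM in the same order of libraries. Those of microglia, vessels and blood summed to 35.5, 24.6, 72.2 and 143 CPM. The source of these transcripts in a neuronal line was not tested. Control normal is the library compared against for knockdown in normal culture and for OGD in control cells. In bulk RNA, fewer cells of a type and less RNA per cell cannot be told apart.

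The levels of the members spanned a wide range per length, and gene coordinates below are those of build GRCm38 (mm10). On the scale of the authors' deposited FPKM, fragments scaled to transcript length and library depth, Hmox1 and Prdx1 were the highest members in every library, at 272 to 2817 and 640 to 1190 FPKM. Hmox1 was first under OGD in both kinds of cell, and Prdx1 was first in normal culture in both. Gclm followed with 167 to 299 FPKM, then Nqo1 and Txnrd1 with 42.7 to 75.9 FPKM between them. In knockdown OGD cells, however, Nfe2l2 at 48.1 FPKM stood above Txnrd1 at 42.7 FPKM. Nfe2l2, Keap1 and Gstm1 lay between 15.8 and 48.1 FPKM, and Gclc and Srxn1 between 10.3 and 30.2 FPKM. This order depends on the length used: by CPM per kilobase of all exons, Hmox1 and not Prdx1 was first in knockdown normal cells, and Nqo1 and not Gclm came next after these 2.

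**Figure D1:**
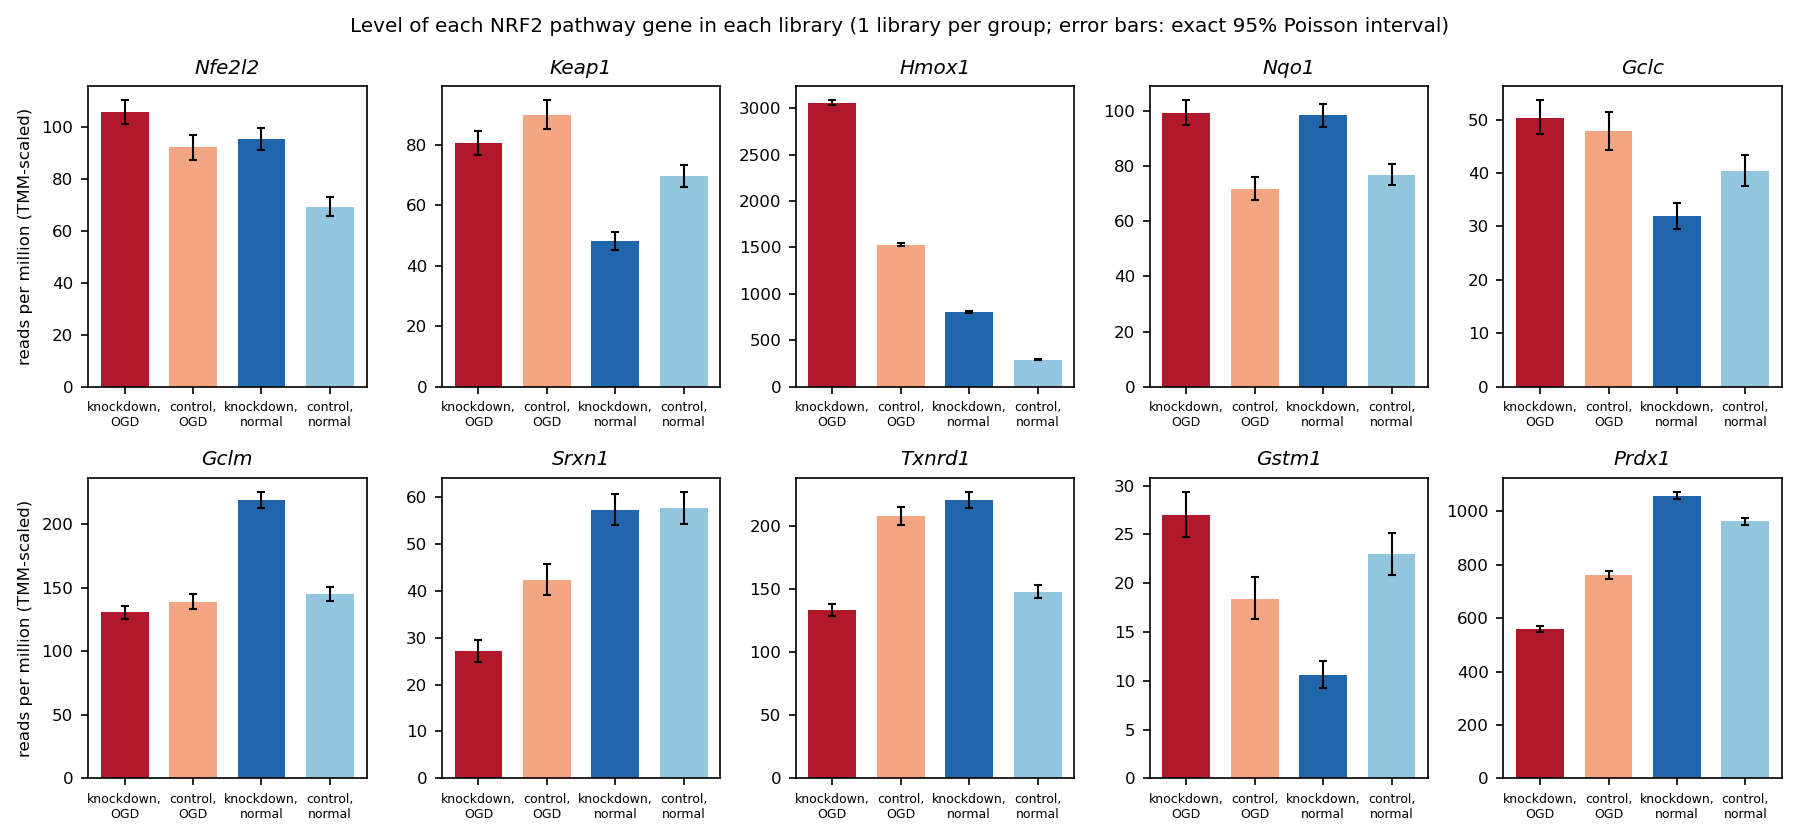
Bars give the CPM of each of the 10 members in the 4 libraries, each gene on its own linear axis from 0, with exact 95% Poisson intervals for counting error. Hmox1 spans 10.5-fold from its lowest to its highest library, and the other members span 1.38-fold to 2.55-fold.

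Hmox1 (ENSMUSG00000005413, chr8:75093621-75100589, plus strand), the inducible haem oxygenase that breaks haem into biliverdin, iron and carbon monoxide, had the widest range of the members. It had 3059 CPM in knockdown OGD, 1531 CPM in control OGD, 806 CPM in knockdown normal and 291 CPM in control normal cells. The knockdown library was the higher one in both cultures, and both OGD libraries were above both normal ones. By deposited FPKM it was the 60th most abundant of all genes in knockdown OGD cells, and it stood at places 169, 271 and 626 in control OGD, knockdown normal and control normal cells. The knockdown library was 2.00-fold higher under OGD (interval 1.97 to 2.03) and 2.77-fold higher in normal culture (2.69 to 2.85, log2 ratio 1.47). The OGD value, a log2 ratio of 0.998, lay just short of the size required, and it was 1.20 with total counts as the scale. OGD libraries were 3.80-fold higher in knockdown cells (3.73 to 3.86) and 5.26-fold higher in control cells (5.11 to 5.41). Of all genes, the authors marked 2.01% for knockdown under OGD and 5.02% for knockdown in normal culture. They marked 1.84% for OGD in knockdown cells and 4.31% for OGD in control cells. The authors' deposited table marked Hmox1 in all 4 of its comparisons, with an adjusted p of 0.285 for knockdown under OGD, 1.21e-10 for knockdown in normal culture, 1 for OGD in knockdown cells and 0.132 for OGD in control cells, each from 1 library against 1.

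Nfe2l2 (ENSMUSG00000015839, chr2:75675513-75704641, minus strand), which encodes NRF2, had 106 CPM in knockdown OGD, 92.2 CPM in control OGD, 95.3 CPM in knockdown normal and 69.2 CPM in control normal cells. The control normal library was the lowest, and the counting intervals of control OGD and knockdown normal cells overlapped. Its mRNA was 1.15-fold higher with knockdown under OGD (interval 1.07 to 1.23) and 1.38-fold higher in normal culture (1.29 to 1.48). With OGD it was 1.11-fold higher in knockdown cells (1.04 to 1.18) and 1.33-fold higher in control cells (1.24 to 1.44). No Nfe2l2 difference reached the size required.

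Keap1 (ENSMUSG00000003308, chr9:21229730-21239361, minus strand), the adaptor that holds NRF2, had 80.5 CPM in knockdown OGD, 89.8 CPM in control OGD, 48.1 CPM in knockdown normal and 69.5 CPM in control normal cells. The knockdown normal library was the lowest, 1.45-fold below control normal cells (interval 1.33 to 1.57), and OGD cells were 1.67-fold above normal cells with the Neat1 lentivirus (1.55 to 1.81). The deposited FPKM gave a different picture of Keap1 under OGD, with 40.0 FPKM in knockdown cells against 29.0 FPKM in control cells, a log2 ratio of 0.46, whereas the reads gave -0.16. By deposited FPKM the OGD ratio of Keap1 in knockdown cells was 1.19 on the log2 scale and the response of knockdown cells minus that of control cells 1.05, both past 2-fold, whereas the reads gave 0.74 and 0.37. An antisense gene, Gm16754, overlaps Keap1 and shares 7.78% of its 50-base words. It held 46, 12, 14 and 69 reads in knockdown OGD, control OGD, knockdown normal and control normal cells, and whether counting used strand is not given in the sources used here.

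Nqo1 (ENSMUSG00000003849, chr8:107388225-107403206, minus strand), the quinone reductase often read as the standard NRF2 target, had 99.2 CPM in knockdown OGD, 71.6 CPM in control OGD, 98.2 CPM in knockdown normal and 76.8 CPM in control normal cells. Both knockdown libraries lay above both control libraries, by 1.38-fold under OGD (interval 1.29 to 1.49) and 1.28-fold in normal culture (1.20 to 1.37). For OGD the ratio was 1.01-fold in knockdown cells (0.949 to 1.07) and 0.933-fold in control cells (0.862 to 1.01), and both intervals include 1. The ratio in control cells depends on the scale: on the log2 scale it was -0.10 here, -0.34 with total counts and -0.33 by deposited FPKM.

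The 2 subunits of glutamate-cysteine ligase, which makes the first bond of glutathione, did not follow each other. The catalytic subunit Gclc (ENSMUSG00000032350, chr9:77754535-77794485, plus strand) had 50.4 CPM in knockdown OGD, 47.8 CPM in control OGD, 31.9 CPM in knockdown normal and 40.4 CPM in control normal cells. The modifier subunit Gclm (ENSMUSG00000028124, chr3:122245557-122270732, plus strand) had 131 CPM in knockdown OGD, 139 CPM in control OGD, 219 CPM in knockdown normal and 145 CPM in control normal cells. Gclc was lowest, and Gclm highest, in knockdown normal cells. With knockdown in normal culture Gclc was 1.26-fold lower (interval 1.14 to 1.40) and Gclm 1.51-fold higher (1.44 to 1.59). With OGD in knockdown cells Gclc was 1.58-fold higher (1.43 to 1.74) and Gclm 1.68-fold lower (1.60 to 1.76), and none of these reached 2-fold. For knockdown in normal culture the authors marked 5.02% of all genes, 2 members among them. The authors' deposited table marked Gclm for knockdown in normal culture, with a fold of 1.51, a p of 0.0437 and an adjusted p of 0.908. Gclm, with 2141 to 4711 reads, overlaps Gm17494 on the opposite strand, which held 2086 to 3769 reads. It also overlaps the pseudogene Gm6061 on its own strand, which held 1489 to 2737 reads. Other genes share 4.58% of the 50-base words of Gclm, so its counts and the contrast with Gclc are uncertain.

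**Figure D2:**
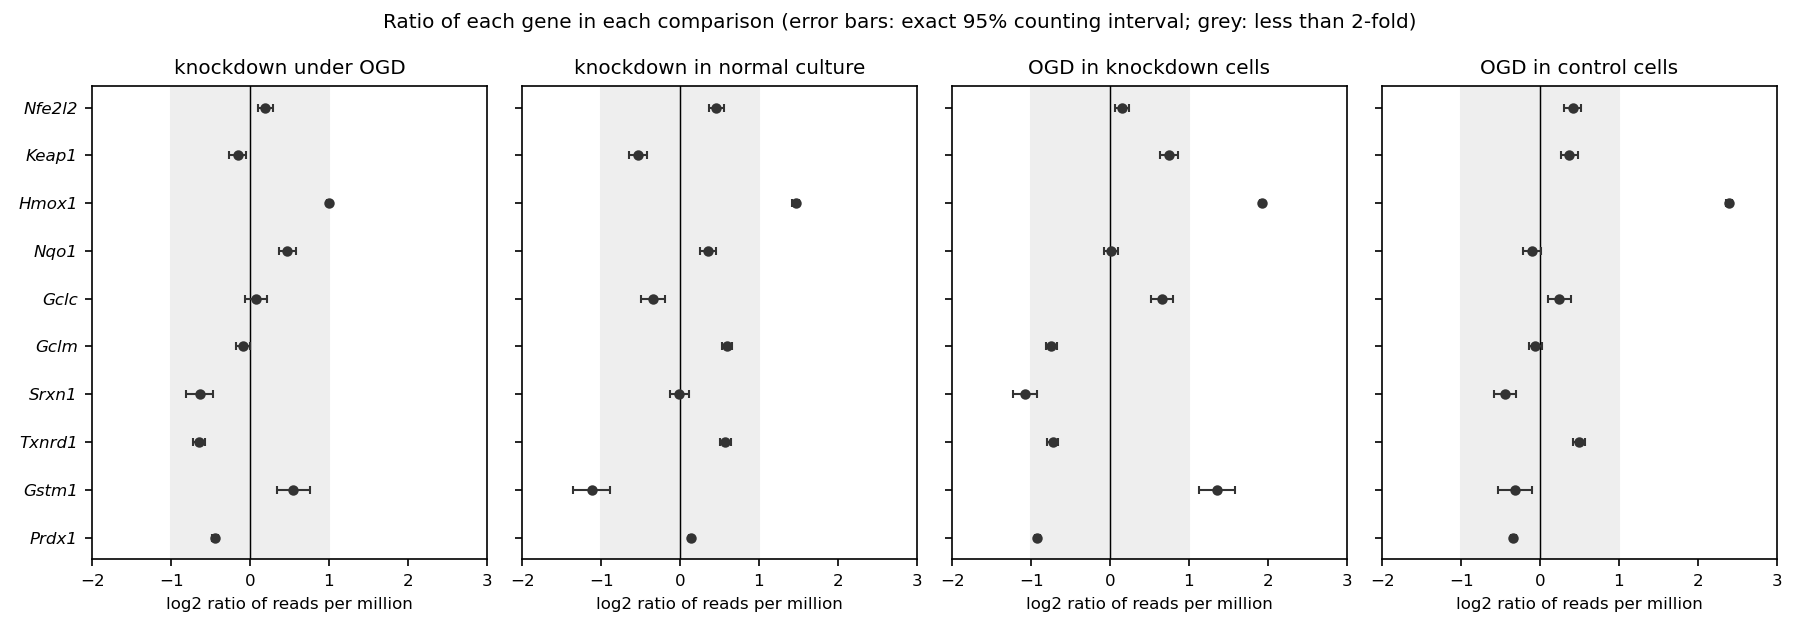
Points give the log2 ratio of CPM, with no pseudocount, for each member in the 4 comparisons, with exact 95% counting intervals and a grey band for less than 2-fold. Hmox1 and Nfe2l2 are to the right of 0 in all 4. For knockdown Gclc, Gclm, Txnrd1, Gstm1 and Prdx1 change side between cultures, where the interval of Gclc under OGD includes 0 and Gclm keeps its side with total counts as the scale.

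Txnrd1 (ENSMUSG00000020250, chr10:82833951-82897712, plus strand), the cytosolic thioredoxin reductase, was lowest in knockdown OGD and highest in knockdown normal cells. It had 133 CPM in knockdown OGD, 208 CPM in control OGD, 221 CPM in knockdown normal and 148 CPM in control normal cells. Knockdown cells were 1.56-fold lower than control cells under OGD (interval 1.48 to 1.64) and 1.49-fold higher in normal culture (1.42 to 1.56). OGD cells were 1.66-fold lower than normal cells with the Neat1 lentivirus (1.58 to 1.74) and 1.41-fold higher with the control lentivirus (1.34 to 1.48). The responses to OGD were therefore 1.22 apart on the log2 scale, lower in knockdown cells, a difference that was -0.99 with total counts as the scale and so short of the size required.

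Srxn1 (ENSMUSG00000032802, chr2:152105516-152111376, plus strand), sulfiredoxin, repairs peroxiredoxins whose cysteine has been over-oxidised. It had 27.2 CPM in knockdown OGD, 42.3 CPM in control OGD, 57.3 CPM in knockdown normal and 57.7 CPM in control normal cells. By CPM the normal libraries differed by less than counting error, and both OGD libraries lay below them. By deposited FPKM the normal libraries differed, with 22.9 FPKM in knockdown cells against 30.2 FPKM in control cells, a log2 ratio of -0.39. OGD cells were 2.11-fold lower with the Neat1 lentivirus (interval 1.90 to 2.34) and 1.36-fold lower with the control lentivirus (1.237 to 1.503). By deposited FPKM the OGD ratio in knockdown cells was -0.81 on the log2 scale, short of 2-fold.

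Prdx1 (ENSMUSG00000028691, chr4:116685544-116700822, plus strand), a cytosolic peroxiredoxin that reduces hydrogen peroxide, was also lowest in knockdown OGD cells. It had 559 CPM in knockdown OGD, 762 CPM in control OGD, 1059 CPM in knockdown normal and 962 CPM in control normal cells. OGD cells were 1.90-fold lower with the Neat1 lentivirus (1.85 to 1.94) and 1.26-fold lower with the control lentivirus (1.23 to 1.29), neither reaching 2-fold. Other genes share 8.81% of the 50-base words of Prdx1, so part of its reads could have been split among copies.

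Gstm1 (ENSMUSG00000058135, chr3:108012255-108017973, minus strand), a glutathione transferase that joins glutathione to electrophiles, had 27.0 CPM in knockdown OGD, 18.4 CPM in control OGD, 10.6 CPM in knockdown normal and 22.9 CPM in control normal cells. The knockdown normal library was the lowest, at 227 reads, and the knockdown OGD library the highest, at 528 reads. Gstm1 was 1.47-fold higher with knockdown under OGD (interval 1.27 to 1.70) and 2.17-fold lower with knockdown in normal culture (1.85 to 2.56, and a log2 ratio of -0.99 with 2 CPM added). OGD cells were 2.55-fold higher than normal cells with the Neat1 lentivirus (2.18 to 2.99) and 1.25-fold lower with the control lentivirus (1.07 to 1.45). The median log2 ratio of the astrocyte markers lay on the same side of 0 as Gstm1 in all 4 comparisons, at 1.69 and -2.47 for knockdown under OGD and in normal culture, and 1.73 and -2.76 for OGD in knockdown and control cells. The other 3 lists did so too, in the same order of comparisons. Their medians were 2.19, -6.24, 3.19 and -5.73 for neurons, and 2.47, -3.89, 2.95 and -3.41 for oligodendrocytes. For microglia, vessels and blood they were 1.57, -3.11, 1.62 and -2.94. Markers short of 20 reads in both libraries were left out of these medians. This left 11, 9, 11 and 9 of 12 astrocyte and 5, 9, 5 and 9 of 10 oligodendrocyte markers. It left all neuron markers and 7 of 15 for microglia, vessels and blood. Some sums went the other way. That for microglia, vessels and blood was 35.5 CPM in knockdown OGD against 72.2 CPM in knockdown normal cells. For astrocytes it was 272 CPM in control OGD against 266 CPM in control normal cells. The summed level of the astrocyte markers was 286 CPM in knockdown OGD, 272 CPM in control OGD, 84.5 CPM in knockdown normal and 266 CPM in control normal cells, with 11, 6, 7 and 9 of 12 at 20 reads or more. Of these sums Gja1 alone gave 189 CPM in knockdown OGD, 233 CPM in control OGD, 56.7 CPM in knockdown normal and 86.9 CPM in control normal cells. Gfap and Aqp4 were at 0 in control OGD cells, and S100b and Aldh1l1 were at 0 in knockdown normal cells. The part of these markers in the Gstm1 values was not tested. Other genes share 18.9% of the 50-base words of Gstm1, mostly the pseudogene Gstm2-ps1 with 14.1%, so its counts are uncertain.

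**Figure D3:**
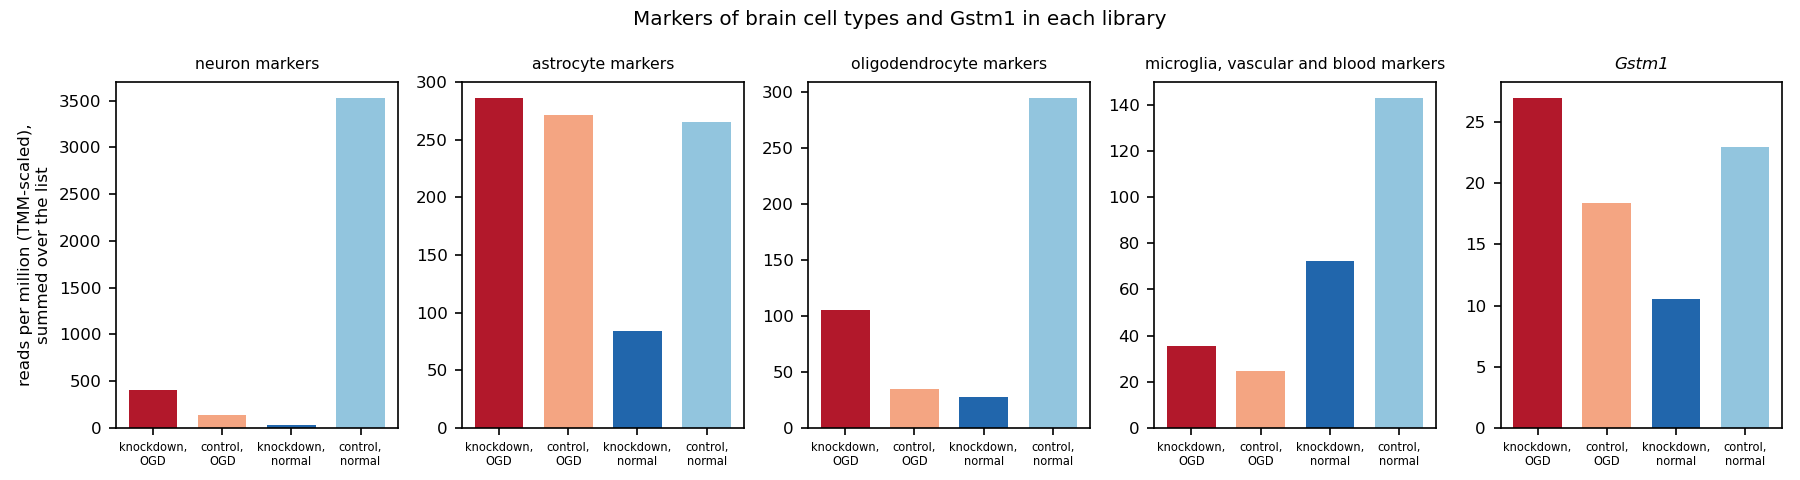
Bars give the summed CPM of each marker list, and the CPM of Gstm1, in the 4 libraries, each on its own linear axis from 0. Gstm1 and the neuron, astrocyte and oligodendrocyte markers are lowest in knockdown normal cells, and the neuron markers reach 3530 CPM in control normal cells.

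Counted together, the members lay on both sides of 0 in every comparison. For knockdown 5 of 10 lay above 0 under OGD and 6 in normal culture, beside 49.89% and 48.09% of all genes tested. For OGD 6 lay above 0 in knockdown cells and 5 in control cells, beside 49.95% and 44.58%. With knockdown under OGD 0 of 10 reached 2-fold, where 15.0% of the 13388 genes tested did (10.7% higher, 4.23% lower). With knockdown in normal culture 2 of 10 did, Hmox1 higher and Gstm1 lower, where 22.6% of 14554 did (6.25% higher, 16.3% lower). With OGD in knockdown cells 3 of 10 did, Hmox1 and Gstm1 higher and Srxn1 lower, where 35.9% did (19.1% higher, 16.9% lower). With OGD in control cells 1 of 10 did, Hmox1, where 31.5% did (9.36% higher, 22.2% lower). The median log2 ratio of the members was -0.01 with knockdown under OGD and 0.25 in normal culture, beside 0.00 and -0.03 for all genes tested. With OGD it was 0.08 in knockdown cells and 0.09 in control cells, beside 0.00 and -0.11. These 4 comparisons share libraries, so their values are not independent of each other.

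The response to OGD was then set side by side for the 2 kinds of cell. The response of knockdown cells minus that of control cells was at least 2-fold for 2 of 10 members, Gstm1 at 1.62 and Txnrd1 at -1.22 on the log2 scale, where 29.8% of 15086 genes were (20.8% higher, 8.92% lower). The other 8 lay between -0.69 for Gclm and 0.41 for Gclc. The median of the members was -0.37, beside 0.01 for all genes tested. The difference for Hmox1 was -0.47.

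**Figure D4:**
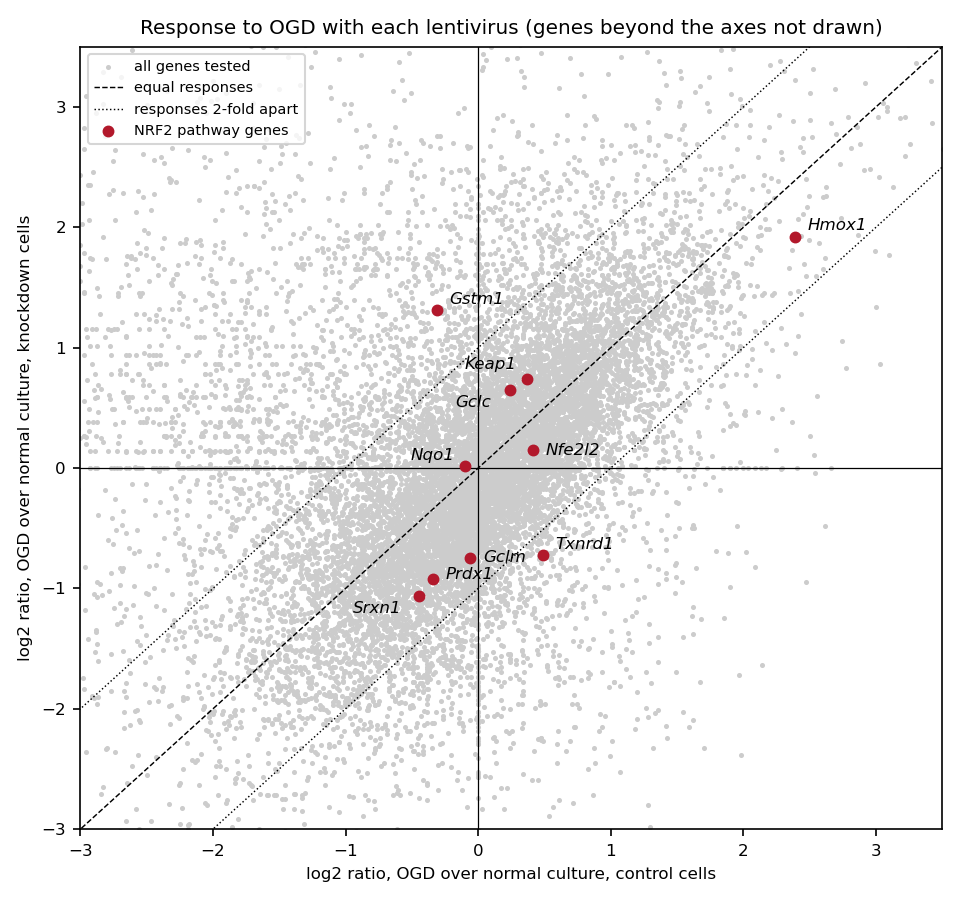
Log2 ratio of OGD over normal culture in knockdown cells (vertical) against that in control cells (horizontal), with the 10 members in red and all genes tested in grey. Hmox1 lies far from 0 on both axes, and Gstm1 and Txnrd1 lie outside the dotted lines that mark responses 2-fold apart.

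Further genes of the pathway were described in 7 lists by role, of which 118 of 121 symbols were measured. Among the partners and regulators of NRF2, 7 of 18 genes with enough reads were at least 2-fold higher with OGD in knockdown cells and 5 of 18 in control cells, and 0 were lower. These shares stand beside 19.1% and 9.36% of all genes. Maff, a small MAF partner, had 317 CPM in knockdown OGD, 236 CPM in control OGD, 28.9 CPM in knockdown normal and 17.6 CPM in control normal cells, with OGD log2 ratios of 3.44 in knockdown cells and 3.70 in control cells. Mafk was 1.78 higher with OGD on the log2 scale in knockdown cells and 1.59 higher in control cells. Sqstm1, the autophagy receptor that binds KEAP1, was 1.49 higher in knockdown and 1.74 higher in control cells. Thus Maff, Mafk and Sqstm1 were higher under OGD with either lentivirus.

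With knockdown under OGD 1 of these 18, the ubiquitin ligase gene Syvn1, was lower at -1.23, beside 4.23% of all genes. In normal culture 0 of 18 were higher and 3 were lower, beside 6.25% higher and 16.3% lower of all genes. Bach1, the repressor, had 91 reads in knockdown normal cells against 180 reads in control normal cells, a log2 ratio of -1.03. Palb2 and Trim21 stood at -1.43 and -1.32 on low counts.

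In glutathione synthesis and use, 1 of 14 genes reached 2-fold with knockdown under OGD and 0 of 14 did in normal culture, beside 15.0% and 22.6% of all genes. The 1 gene was Gsr, glutathione reductase, with 318 reads in knockdown OGD against 631 reads in control OGD cells, a log2 ratio of -1.31. With OGD 2 genes were higher and 3 lower in knockdown cells, and 3 higher and 2 lower in control cells, beside 35.9% and 31.5% of all genes past 2-fold. The higher ones included Chac1, which degrades glutathione, at 1.77 in knockdown and 3.10 in control cells, and Slc3a2, a subunit of the cystine transporter, at 1.12 and 1.75. The other subunit, Slc7a11, went the other way, at -1.01 in knockdown cells, past 2-fold, and -0.33 in control cells. Gsr at -1.36 and Glo1, glyoxalase 1, at -1.83 were among the lower ones in knockdown cells.

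Among the other glutathione transferases, Mgst2 was higher with knockdown in both cultures. It had 360 reads in knockdown OGD against 123 reads in control OGD cells, a log2 ratio of 1.15, and 434 reads in knockdown normal against 151 reads in control normal cells, a log2 ratio of 1.34. In all, 2 transferases were higher and 1 lower of 13 with knockdown under OGD, beside 10.7% and 4.23% of all genes. In normal culture 1 was higher and 1 lower of 13, beside 6.25% and 16.3%. With OGD 1 was higher and 1 lower, of 12 in knockdown cells and of 14 in control cells, beside 35.9% and 31.5% of all genes past 2-fold.

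In the thioredoxin and peroxiredoxin system 1 of 16 genes reached 2-fold with knockdown under OGD, Txnip, the inhibitor of thioredoxin, at 2.71, and 0 did in normal culture, beside 15.0% and 22.6% of all genes. With OGD in knockdown cells 2 of 16 were higher and 3 lower, beside 19.1% and 16.9% of all genes, and the median was -0.46 beside 0.00 for all genes tested. The lower ones were Txnip at -1.51, Txn1, thioredoxin itself, at -1.20 and Prdx6 at -1.13. Txn1 had 305 CPM in knockdown OGD, 592 CPM in control OGD, 703 CPM in knockdown normal and 672 CPM in control normal cells, so its lowest library was that of Txnrd1, Srxn1 and Prdx1 too. With OGD in control cells 3 were higher and 1, Txnip at -4.09, was lower, beside 9.36% and 22.2%. The higher ones were Sesn2 at 2.26, Msra at 1.42 and Txnrd2 at 1.15.

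In haem and iron handling, knockdown libraries were higher for 2 of 14 genes under OGD and for 1 of 14 in normal culture, beside 10.7% and 6.25% of all genes. Slc40a1, the iron exporter ferroportin, was 1.93 higher with knockdown under OGD on low counts, at 144 reads in knockdown OGD against 24 reads in control OGD cells. Tfrc, the transferrin receptor, was 1.32 higher there. Flvcr1, a haem exporter, had 678 reads in knockdown normal against 187 reads in control normal cells, a log2 ratio of 1.68. With OGD 1 was higher and 1 lower in either kind of cell, beside 35.9% of all genes past 2-fold in knockdown cells and 31.5% in control cells. In knockdown cells these were Slc40a1 at 1.95 and Flvcr1 at -2.38, and in control cells Ftl1, ferritin light chain, at 1.05 and Tfrc at -1.95.

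For NADPH supply, Idh1 was lower with knockdown in both cultures, at -1.11 under OGD and -1.31 in normal culture, as the 1 gene of 11 past 2-fold in each, beside 4.23% and 16.3% of all genes lower. Mthfd2 was the 1 gene of 11 higher with OGD, at 1.04 in knockdown and 2.18 in control cells, beside 19.1% and 9.36% of all genes higher. Of 21 other detoxification and antioxidant genes, 0 reached 2-fold with knockdown in either culture, beside 15.0% of all genes under OGD and 22.6% in normal culture. With OGD 4 were higher and 4 lower in either kind of cell, beside 19.1% higher and 16.9% lower of all genes in knockdown cells, and 9.36% and 22.2% in control cells. Aldh3a1, an aldehyde dehydrogenase, was 3.23 higher in knockdown and 2.39 higher in control cells. Sod3, extracellular superoxide dismutase, stood at -1.51 and -1.69 in knockdown and control cells.

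The list medians were small beside these single genes, and those of all genes tested were 0.00 and -0.03 for knockdown under OGD and in normal culture, and 0.00 and -0.11 for OGD in knockdown and control cells. For knockdown under OGD and in normal culture the median log2 ratio was 0.01 and 0.16 for partners and regulators, -0.24 and 0.14 for glutathione synthesis and use, 0.28 and 0.06 for haem and iron handling, and -0.25 and 0.21 for NADPH supply. With total counts as the scale, the values of these lists for knockdown under OGD were 0.21, -0.04, 0.47 and -0.05. The median was -0.19 and 0.08 for the thioredoxin and peroxiredoxin system, -0.04 and 0.26 for transferases, and -0.13 and 0.10 for other detoxification genes, and the OGD values of these 3 lists were 0.00, 0.15 and 0.07 with total counts as the scale. For OGD in knockdown and control cells it was -0.54 and -0.37 for glutathione synthesis and use, -0.46 and -0.17 for the thioredoxin system, 0.16 and -0.15 for haem and iron handling, and -0.08 and 0.24 for NADPH supply. With total counts the values of these lists in control cells were -0.61, -0.41, -0.38 and 0.00. The OGD median was 0.00 and 0.10 for transferases (-0.01 and -0.13 with total counts) and -0.15 and 0.22 for other detoxification genes (-0.02 in control cells with total counts).

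**Figure D5:**
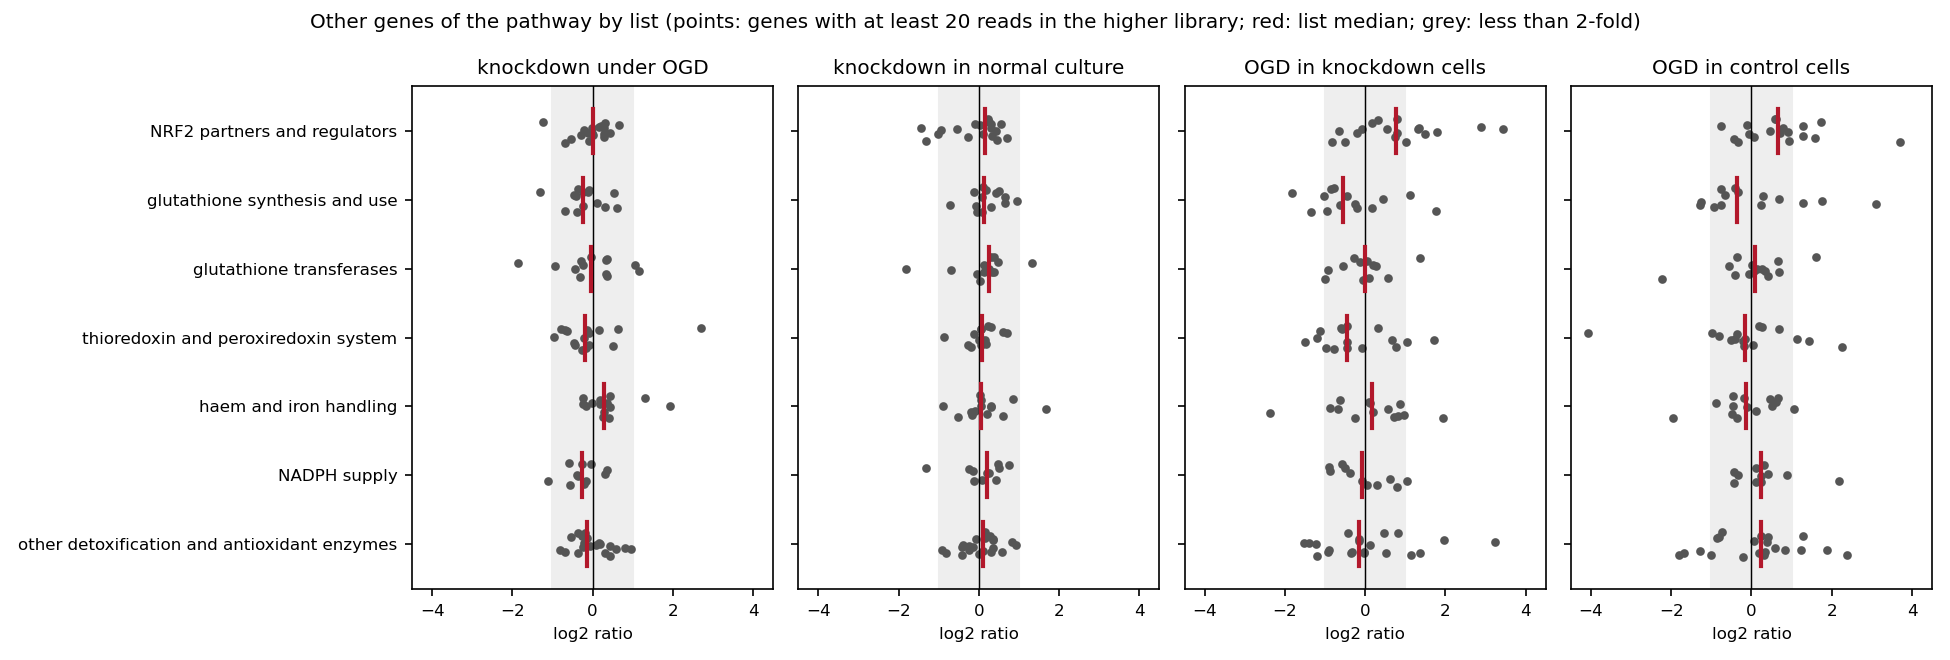
Points give the log2 ratio of every listed gene that met the read minimum, by role and comparison, with each list's median as a red bar and a grey band for less than 2-fold. The partners and regulators have the highest OGD medians of the 7 lists, 0.77 in knockdown cells and 0.65 in control cells.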

How the data were processed

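RNA-seq of 4 libraries, 1 per group, was analysed. Per the labels' protocols, total RNA was fragmented and copied to cDNA with deoxy-UTP in 1 strand. The submitters' processing notes name TopHat2 and mm10, and the counter is not given in the sources used here. The authors deposited 4 tables of pairwise comparisons, which hold mean values per library scaled by size factors (a signal), FPKM, the ratio of the libraries (fold), its log2 value, and p-values with adjusted p-values. A mark in the authors' deposited table goes with an unadjusted p below 0.05, from its values. Each scaled value was a whole multiple of 1 read (100% of values, tolerance 1e-06 reads), which gave back the count of reads per gene.

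Reads were scaled with TMM (edgeR 4.0.16, R 4.3.3) and given as CPM. Ratios used log2(CPM + 0.5), a floor of 20 reads in the higher library and a size of 2-fold, and folds and intervals had no pseudocount. Level intervals were exact Poisson and ratio intervals exact conditional binomial. A count test was not run, with 1 library per group. The 2-fold rule and the ratio intervals were checked on simulated Poisson counts with the library sizes taken as known. The scaling, the recovery of reads and the motif search were not part of that check.

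Gene names came from GENCODE M21, which matched 19912 of 20089 identifiers. The members and lists were chosen with earlier results of these data known. Named genes are the members, Neat1, at most 4 per list and comparison with the largest ratios past 2-fold, and, for members spanning 2-fold, the 3 genes with the most similar profile. Slc7a11 was named in addition, beside Slc3a2. Alternatives were total counts, median-of-ratios scaling, a smaller and a larger pseudocount, other floors and the deposited FPKM.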

Additional observations from a re-analysis of the deposited data

Results flagged for a closer look

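Results are listed here where an effect lay on opposite sides of 0 under 2 conditions, with both counting intervals clear of no difference. The differences between conditions were not tested, since each group was 1 library. The rule was applied to the members only, so the share of all genes that meet it is not known. The intervals narrow with more reads, so genes with many reads can meet the rule at small ratios. The effect of knockdown had opposite signs under OGD and in normal culture for 4 members, on the log2 scale. Txnrd1 stood at -0.64 under OGD and 0.58 in normal culture. Gstm1 stood at 0.54 under OGD and -1.08 in normal culture. Prdx1 stood at -0.45 under OGD and 0.14 in normal culture. Gclm stood at -0.0887 under OGD and 0.60 in normal culture, and its OGD value was 0.11 with total counts as the scale. The effect of OGD had opposite signs in knockdown and control cells for 2 members. Txnrd1 stood at -0.73 in knockdown cells and 0.49 in control cells, and Gstm1 at 1.31 in knockdown cells and -0.31 in control cells. Both listings of Txnrd1 and Gstm1 come from the same libraries and are not independent of each other.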

How the results depend on the processing

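No paired analysis was possible because each group was 1 library. The number of members past 2-fold moved in 4 cases. With total counts as the scale it was 1 with knockdown under OGD (Hmox1) and 1 for the difference of the OGD responses (Gstm1), against 0 and 2. With 2 CPM added it was 1 with knockdown in normal culture, against 2. With deposited FPKM it was 1 with knockdown under OGD, and where the count held the members differed: Keap1 took the place of Srxn1 with OGD in knockdown cells and of Txnrd1 in the response difference. Other floors left the member ratios unchanged, and CPM added to both libraries cannot turn the sign of a ratio of 2 libraries. For those ratios only another scale or FPKM could change a sign. The sign held under all alternatives for 46 of 50 member ratios, which share the same 4 libraries and are not independent. The exceptions were Keap1 and Gclm with knockdown under OGD, at 0.05 and 0.11 with total counts and 0.46 and 0.18 with FPKM, Srxn1 with knockdown in normal culture, at 0.03 with median-of-ratios scaling, and the response difference of Srxn1, at 0.09 with FPKM. The cause was not tested.

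Among all genes past 2-fold, the higher share was 71.7% with knockdown under OGD and 29.7% with OGD in control cells, against 82.3% and 18.5% with total counts and 81.2% and 19.8% with FPKM. Total counts moved the median of all genes to 0.19 and -0.34 in these comparisons. With a floor of 100 reads, knockdown in normal culture gave 364 higher and 1297 lower genes, against 910 and 2374, and knockdown under OGD gave 456 and 267, against 1437 and 566. With 2 CPM added the higher genes were 283 and 535 in these comparisons, and 263 were lower under OGD, where no floor gave 901 and FPKM 327. With OGD in control cells the higher genes were 866 with total counts and 836 with FPKM, against 1320, and the lower ones 1923 with the floor of 100, against 3125. With OGD in knockdown cells 1542 genes were lower with 2 CPM added, against 2375, and 1635 higher with the floor of 100, against 2682. The response difference gave 1716 higher and 706 lower genes with that floor, and 692 lower with 2 CPM added, against 3144 and 1346. List medians changed sign with total counts for the transferases (0.15 with knockdown under OGD, -0.13 with OGD in control and -0.01 in knockdown cells), the thioredoxin and peroxiredoxin system (0.00 with knockdown under OGD) and other detoxification genes (0.07 with knockdown under OGD and -0.02 with OGD in control cells). TMM factors from the 3 libraries other than control normal, an alternative chosen after seeing the data, left the counts of members for knockdown under OGD and OGD in knockdown cells, those it was run on, at 0 and 3.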

Other observations

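For the 3 members that spanned at least 2-fold, the genes with the most similar profile over the 4 libraries were looked up among 10864 genes whose highest library held 100 reads or more. Likeness is the largest log2 difference between centred profiles, and a small value means a close profile. Hmox1 had few genes near it: Cox7a1 at 0.24, Cd68 at 0.27 and Acap1 at 0.29, and 1 gene lay within 0.25. Cox7a1 and Acap1 had only 0.61 and 0.10 CPM in control normal cells, so their profiles depend on the 0.5 CPM added. The distance was not scaled to the range of a gene, so counts of near genes cannot be compared between members. Srxn1 had 444 genes within 0.25, with Huwe1 at 0.02, Ssna1 at 0.03 and Ndufaf7 at 0.04. Gstm1 had 56 genes within 0.25, with Sumf1 at 0.06, Stoml1 at 0.10 and Rsbn1 at 0.11. Over 4 libraries such likeness is a description of these profiles.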
